A study of Mus musculus with 6 samples.

Results

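The Ms4a family encodes small proteins that cross the membrane 4 times, and 6 of its genes that macrophages use were followed here by their names in the deposited count table: Ms4a4a, Ms4a4c, Ms4a6b, Ms4a6c, Ms4a6d and Ms4a7. All 6 were found among the 54532 genes of the table, and all 6 passed the filter on low counts that left 13776 genes for testing. RNA came from sorted Kupffer cells of male mice, which are macrophages that live in the liver sinusoids. One group, Trem2_KO, lacked Trem2, and the other, WT, consisted of wild-type littermates, with 3 libraries each. All mice were 8 weeks old when an 8-week high fat diet began, so no group was fed another diet. The sources used here do not name the Trem2 allele or say whether it is deleted in every cell, nor do they state how many mice stand behind a library. The p-values therefore cover only the spread among these 6 libraries, part of which may be technical.

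MS4A proteins sit at the cell surface and in endosomes, where they associate with receptors and change how those receptors signal, traffic or are shed. In human macrophages MS4A4A has been found together with TREM2, a receptor for lipids, and the MS4A gene cluster is linked to the level of soluble TREM2. MS4A4A is also known as a partner of the lectin receptor Dectin-1 and as a gene of alternatively activated and glucocorticoid-treated macrophages. The comparison asks which of these genes differ in RNA level between Trem2_KO and WT Kupffer cells.

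The 6 genes lie together on mouse chromosome 19 (GRCm38), between 11321039 and 11604849, a stretch of 284 kb within the 679 kb that hold all Ms4a genes of the table. Ms4a4a lies at 11375523 to 11392790, Ms4a4c at 11404770 to 11427246, Ms4a6c at 11469366 to 11482192 and Ms4a6b at 11516512 to 11531256, all on the plus strand. Ms4a7, at 11321039 to 11336146, and Ms4a6d, at 11586604 to 11604849, lie on the minus strand. By coding sequence (GENCODE M21 transcripts) they form a close trio and a looser pair. Ms4a6b and Ms4a6c were identical at 85.7% of aligned bases, Ms4a6b and Ms4a6d at 81.3%, and Ms4a6c and Ms4a6d at 77.5%. Ms4a4a and Ms4a4c shared 67.2%, and the other pairs of the 6 shared at most 60.0%.

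Promoter sequence was read from RefSeq (GRCm38.p6) as the 250 bases before each start, and 5 of the 6 genes matched an entry: Ms4a4a, Ms4a4c, Ms4a6b, Ms4a6c and Ms4a7. For Ms4a4c, Ms4a6b and the downstream start of Ms4a7, the RefSeq start lay 2891, 2047 and 1451 bases downstream of the gene start in the count table. The windows of these starts therefore lie inside the annotated genes. The sequence before Ms4a4a, the gene with the largest change below, is shown with the only motif match in capitals. The sequences before Ms4a6c and Ms4a6b, both higher in Trem2_KO, are shown up to the first GENCODE exon base inside the window, with the run of letters they share in capitals.
Ms4a4a, chr19:11375238-11375487, plus strand: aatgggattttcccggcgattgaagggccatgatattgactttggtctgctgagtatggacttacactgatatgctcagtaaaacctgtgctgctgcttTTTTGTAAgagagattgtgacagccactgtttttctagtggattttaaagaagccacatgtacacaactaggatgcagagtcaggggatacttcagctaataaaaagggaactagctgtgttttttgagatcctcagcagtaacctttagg
Ms4a6c, chr19:11469118-11469365, plus strand: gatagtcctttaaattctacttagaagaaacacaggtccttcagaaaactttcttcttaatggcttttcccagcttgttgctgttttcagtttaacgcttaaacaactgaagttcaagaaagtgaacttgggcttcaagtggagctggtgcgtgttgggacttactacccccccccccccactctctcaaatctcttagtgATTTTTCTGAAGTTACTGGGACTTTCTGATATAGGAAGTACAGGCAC
Ms4a6b, chr19:11518309-11518452, plus strand: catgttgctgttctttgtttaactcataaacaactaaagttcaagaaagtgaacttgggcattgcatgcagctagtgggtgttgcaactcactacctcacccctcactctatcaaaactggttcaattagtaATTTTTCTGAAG
The promoters of Ms4a6c and Ms4a6b held an identical run of 48 bases, found in 2 of 32851 RefSeq promoters. Over 175 aligned bases the pair was 85.1% identical, and the longest run shared by any other pair of Ms4a promoters compared was 9 bases. In Ms4a6c, 47 bases of the run lay before the first exon base of the window. In Ms4a6b 12 did, and the other 36 lay inside an exon of a GENCODE transcript that starts upstream of the RefSeq start. Ms4a6b itself starts at 11516512 in the count table, so the 144 bases shown for it lie within the annotated gene.

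A search of both strands was made for the letters of PU.1 (AGAGGAAG, GAGGAAGT), MAF, STAT factors (TTCCNNGAA and a form with wider spacing), the interferon-stimulated response element, AP-1 (TGANTCA, which lies within the MAF letters), C/EBP (TTNNGNAA), MiT factors (TCACGTGA, CACGTG, the second within the first), the glucocorticoid receptor (AGAACA), other nuclear receptors (AGGTCA) and the GC box (GGGCGG). Only the C/EBP letters were found before Ms4a4a, and they were also found before Ms4a4c, Ms4a6b, Ms4a6c and Ms4a7. Those letters occur in 36.8% of all RefSeq promoters of this length. The glucocorticoid receptor letters were found once before Ms4a6b and before the downstream start of Ms4a7, against 16.1% of all promoters. The wider STAT letters were found once before the upstream start of Ms4a7, against 5.85% of all promoters. The AP-1 letters were found once before its downstream start, against 6.75%. The letters of the interferon response element, present in 2.98% of promoters, were found before none of the 5 genes. A match is a description of letters and shows no binding.

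Library totals lay between 15799351 and 15893041 counts for WT and between 16347967 and 17135603 for Trem2_KO, and 3 counts, the limit that a count of 0 allows, correspond to 0.173 to 0.192 CPM (counts scaled to library size) for counting error only. Trem2 itself was lower in the libraries labelled Trem2_KO (16.6, 17.3 and 14.5 CPM) than in those labelled WT (84.2 to 89.96 CPM). The sorted cells carried the macrophage genes Csf1r (7342 and 7320 CPM in WT and Trem2_KO), Adgre1 (2248 and 2222 CPM) and Cd68 (937 and 857 CPM). They also carried the Kupffer cell gene Clec4f (12310 and 11180 CPM). Of 10 general macrophage markers tested, 5 were called lower and 2 higher by edgeR, beside 15.1% and 15.3% of all tested genes. Their summed level was 20040 to 20440 CPM in WT and 18860 to 19130 CPM in Trem2_KO. Markers of other liver cells were present at lower levels and are given with the results they move with. In such bulk RNA, fewer cells of a type and less RNA per cell cannot be told apart.

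The 6 genes did not respond alike: Ms4a4a was several-fold higher in Trem2_KO, Ms4a6b and Ms4a6c were modestly higher, and Ms4a4c, Ms4a6d and Ms4a7 did not pass the test. Thus 3 of 6 were called higher by edgeR at an adjusted p under 0.05, where 15.3% of all tested genes were called higher (30.3% in either direction), and 0 of 6 were called lower, where 15.1% of all genes were. At an unadjusted p under 0.05 the counts were again 3 higher and 0 lower, with no share of all tested genes taken at that cut. DESeq2 and limma-voom also called 0 lower. Of all 13776 genes they called 3096 and 4116, with 1623 and 2080 of them higher. All 6 log2 changes were above 0, here and in each of the 21 alternative settings tried, with a median of 0.18 against -0.01 over all tested genes. The summed level of the 6 genes was 339 ± 4.53 CPM in WT and 385 ± 5.9 CPM in Trem2_KO (SD, n = 3 each). In 4 of 6 genes every Trem2_KO library lay above every WT library, against 20.9% of all tested genes in that direction and 41.6% in either.

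**Figure D1:**
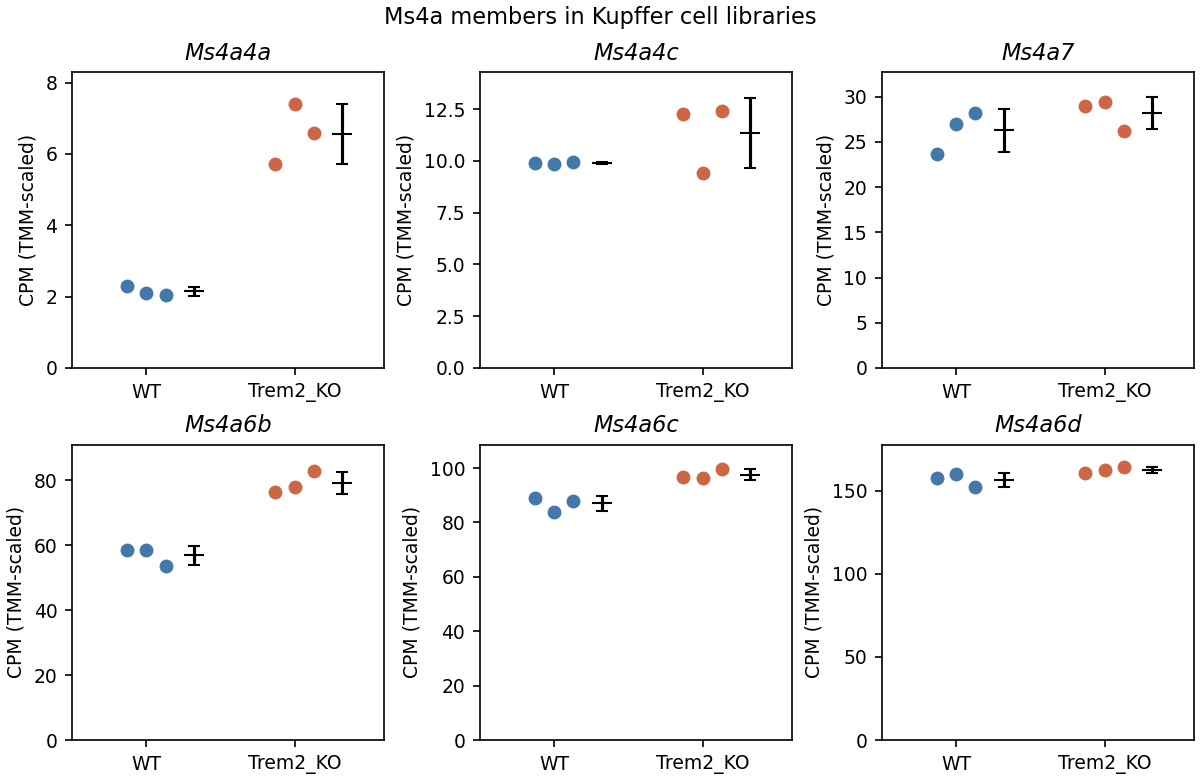
Level of each of the 6 Ms4a genes in CPM (TMM-scaled) by library, with 3 WT and 3 Trem2_KO points per panel and the group mean ± SD as a bar beside them; every axis starts at 0. Ms4a4a rises from about 2.15 to 6.56 CPM with no overlap, while Ms4a4c and Ms4a7 overlap between groups.

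Ms4a4a encodes the family member for which partnership with TREM2 and Dectin-1 has been described. It was counted at 36, 33 and 32 reads in WT and at 99, 122 and 112 reads in Trem2_KO, or 2.30, 2.11 and 2.04 CPM against 5.72, 7.40 and 6.58 CPM. The lowest Trem2_KO library was thus well above the highest WT library. The level was 3.04-fold higher in Trem2_KO (log2 change 1.61, SE 0.187, n = 3 per group, edgeR adjusted p = 6.22e-10), higher in 3 of 3 libraries. Its absolute log2 change lay at the 99.1 percentile of all tested genes. It was called under all 21 of these settings, with log2 changes from 1.30 to 1.70. The counts are small, so the fold is known less precisely than the direction (95% interval of the log2 change 1.24 to 1.97). No other gene overlaps Ms4a4a, and of the 787 different 50-base words in its transcripts 0 occur in transcripts of another gene, on either strand.

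Ms4a4c, the neighbour of Ms4a4a and its nearest relative among the 6 by coding sequence, is known as an interferon-inducible gene. WT libraries had 155, 154 and 156 reads, and Trem2_KO libraries had 212, 155 and 211 reads, which is 9.89, 9.83 and 9.96 CPM against 12.2, 9.40 and 12.4 CPM. Trem2_KO replicates 1 and 3 lay above all WT libraries and replicate 2 below them, so the groups overlap. The log2 change of 0.20 (SE 0.119, 95% interval -0.0341 to 0.432) did not pass the test (edgeR adjusted p = 0.215). Without Trem2_KO replicate 2 the log2 change was 0.32 and the adjusted p was 0.0579. Of its 50-base transcript words 8.19% also occur in another gene, mostly in Ms4a4b, which had at most 18 reads in a library.

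Ms4a6b, Ms4a6c and Ms4a6d are the trio with the closest coding sequences among the 6. Ms4a6b was read at 916, 919 and 838 counts in WT and 1324, 1287 and 1409 in Trem2_KO, which gave 58.4, 58.7 and 53.5 CPM against 76.4, 78.0 and 82.8 CPM. All Trem2_KO libraries were above all WT libraries, and the level was 1.39-fold higher (log2 change 0.48, SE 0.0514, edgeR adjusted p = 7.06e-11). It was called in 20 of 21 alternatives.

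Ms4a6c was read at 1397, 1316 and 1378 counts in WT and 1674, 1590 and 1698 in Trem2_KO, or 89.1, 84.0 and 88.0 CPM against 96.6, 96.4 and 99.8 CPM. The groups did not overlap, but the difference was small, 1.12-fold (log2 change 0.17, SE 0.044, edgeR adjusted p = 0.00272), and it was called in 19 of 21 alternatives. Ms4a6c overlaps BE692007, a transcript on the opposite strand, and 51.4% of the 50-base words of Ms4a6c transcripts (1028 of 2001) also occur in another gene, 993 of them in BE692007. BE692007 had 2500 reads in all against 9053 of Ms4a6c and was itself higher in Trem2_KO (23.1 ± 0.208 and 27.8 ± 3.91 CPM, log2 change 0.26, SE 0.0812, edgeR adjusted p = 0.0101). No source used here gives the strand setting of the counting, so reads of the 2 genes cannot be told apart and the value of Ms4a6c is uncertain.

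Ms4a6d, a mouse gene whose product has been described as a partner of the Kupffer cell receptor Vsig4, was the most abundant of the 6. It had 2475, 2506 and 2379 reads in the WT libraries against 2778, 2677 and 2788 in Trem2_KO, or 157.8, 160.0 and 151.9 CPM against 160.4, 162.3 and 163.9 CPM. The groups did not overlap, by a margin of less than 1 CPM, and the log2 change of 0.05 (SE 0.0363, 95% interval -0.0206 to 0.122) was not called (edgeR adjusted p = 0.315). Its 95% interval ends below that of Ms4a6b, which runs from 0.375 to 0.577. At 50 bases, Ms4a6b shared 3.57% and Ms4a6d 2.54% of its transcript words with other genes, and at 100 bases both shared 0%; the read length is in no source used here.

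Ms4a7, a gene used as a marker of macrophages in several tissues, was read at 371, 423 and 442 counts in WT and 503, 485 and 445 in Trem2_KO, or 23.7, 27.0 and 28.2 CPM against 29.0, 29.4 and 26.2 CPM. The lowest Trem2_KO library lay inside the WT range. Its log2 change was 0.10 (SE 0.0755, 95% interval -0.0475 to 0.248, edgeR adjusted p = 0.341). For Ms4a4c, Ms4a6d and Ms4a7 the intervals leave out a change of the size seen in Ms4a4a, but a missed threshold does not show that their levels were equal.

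The deposited FPKM, which divides counts by gene length, ordered the genes within a library. In WT the order was Ms4a6d (89.95 ± 2.49 FPKM), Ms4a6c (42.3 ± 1.3), Ms4a6b (12.6 ± 0.66), then Ms4a7 (5.89 ± 0.523) and Ms4a4c (5.63 ± 0.0326), which overlapped each other, and last Ms4a4a (2.56 ± 0.159), each as mean ± SD of 3 libraries. In Trem2_KO the first 3 kept their order at 93.0 ± 1.04, 47.4 ± 0.932 and 17.6 ± 0.742 FPKM. Ms4a4a was then at 7.81 ± 1.0 FPKM, Ms4a4c at 6.45 ± 0.959 and Ms4a7 at 6.30 ± 0.397, and Ms4a4a overlapped Ms4a4c. The place of Ms4a7 depends on the length used: the table gives it 4453 bases, while its longest coding transcript has 1576, and with coding transcript lengths, chosen after the data were seen, Ms4a7 stood at 17.8 FPKM in Trem2_KO, above Ms4a4a at 7.81.

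**Figure D2:**
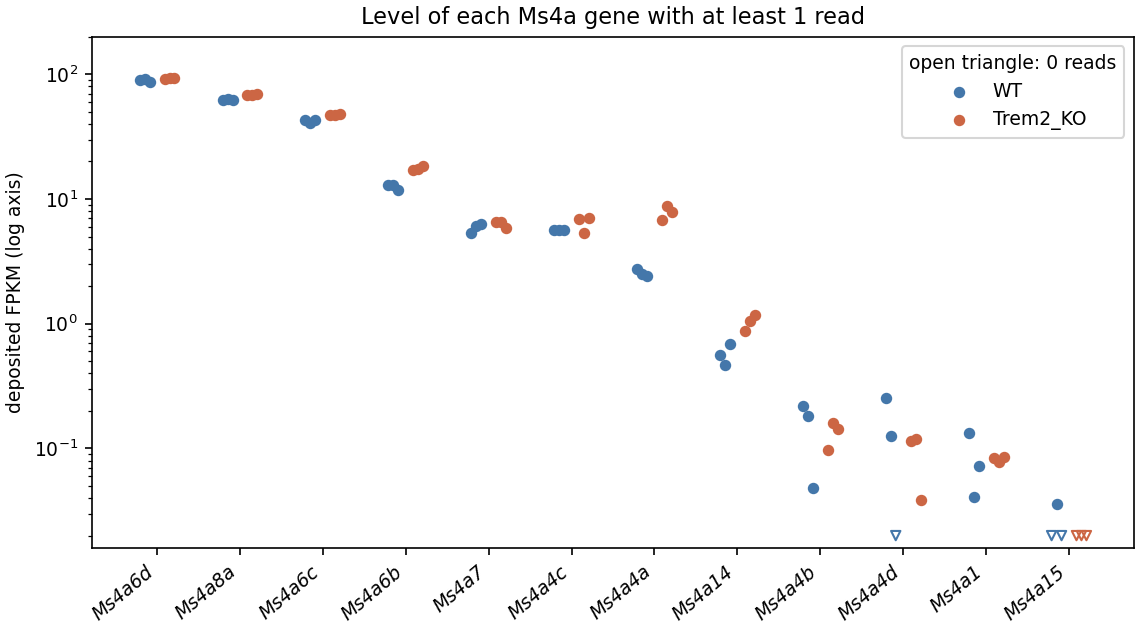
Deposited FPKM on a log axis for each Ms4a gene with at least 1 read, 3 WT and 3 Trem2_KO libraries per gene, ordered by the WT mean; open triangles mark libraries with 0 reads. Ms4a6d stands highest at 89.95 FPKM in WT, and Ms4a4a is the gene whose 2 groups are farthest apart among those above 1 FPKM.

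The share of each gene in the summed FPKM of the 6 describes the make-up of the family in a library. Ms4a4a made up 1.70, 1.57 and 1.56% of this sum in WT and 3.86, 4.95 and 4.32% in Trem2_KO, a difference of 2.77 percentage points. Ms4a6b went from 7.95 ± 0.297% to 9.83 ± 0.26%, and Ms4a6d from 56.6 ± 0.833% to 52.1 ± 0.295% (SD, n = 3 each). For these 3 genes the groups did not overlap, and the exact two-sided permutation p was 0.1, the smallest that 3 against 3 allows, or 0.2 after Benjamini-Hochberg adjustment over 6 shares. The share of Ms4a6d was lower although its own level was not, since shares add up to a whole. The shares of Ms4a4c (3.54 and 3.61%), Ms4a6c (26.6 and 26.5%) and Ms4a7 (3.71 and 3.53%) overlapped between groups.

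The difference between groups in a ratio taken within a library does not depend on how libraries were scaled or on gene length, although the ratio itself depends on the lengths used. Over the 15 pairs of the 6 genes, 10 had ratios that did not overlap between the groups, and these included all 5 pairs with Ms4a4a. The pairs reuse the same 6 genes, so they are not 10 separate results. Of all tested genes taken singly, 41.6% did not overlap between groups in CPM. Relative to the other 5 genes, Ms4a4a was higher in Trem2_KO by 1.13 (against Ms4a6b) to 1.55 (against Ms4a6d) on the log2 scale. Against its neighbour Ms4a4c, the log2 ratio was -1.04, -1.16 and -1.22 in WT and -0.03, 0.72 and 0.15 in Trem2_KO. Within the trio, the log2 ratio of Ms4a6b to Ms4a6d went from -2.83 ± 0.0379 to -2.41 ± 0.0456 and that of Ms4a6b to Ms4a6c went from -1.74 ± 0.0999 to -1.43 ± 0.0346, again without overlap. For each of these 10 pairs the exact permutation p was 0.1, the smallest possible, and 0.15 after adjustment over 15 pairs.

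**Figure D3:**
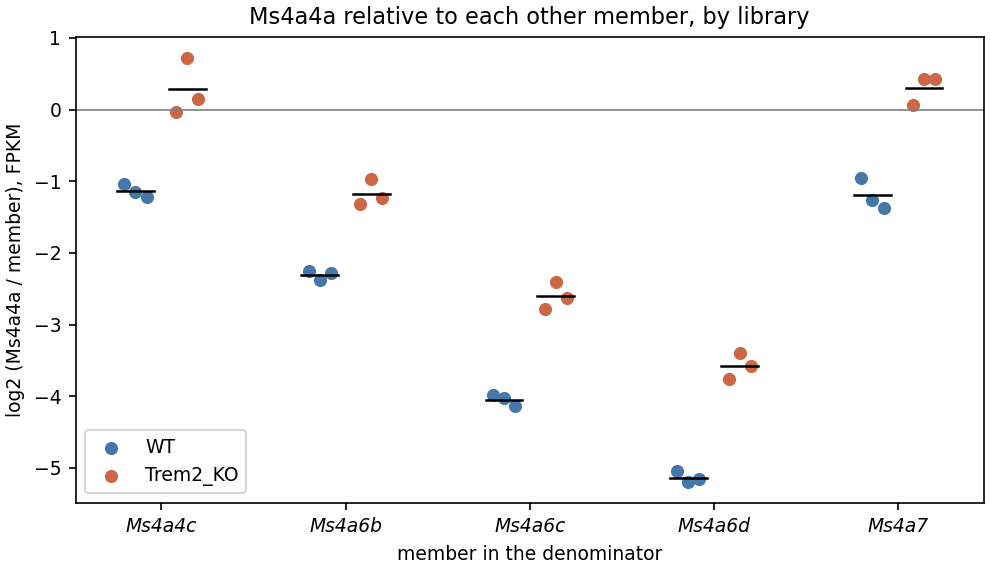
Log2 ratio of Ms4a4a to each of the other 5 genes from FPKM, by library (3 WT and 3 Trem2_KO points per gene, black lines at the group means). In all 5 comparisons the Trem2_KO points lie above the WT points, by 1.13 to 1.55 on average.

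Of the 13 other genes of the table with an Ms4a name, 3 passed the filter on low counts. Of these, 2 were called higher, where 15.3% of all tested genes were. Ms4a8a, described in macrophages under alternative activation, was abundant, with 112.6, 114.8 and 111.4 CPM in WT and 122.5, 124.0 and 124.9 CPM in Trem2_KO (log2 change 0.13, SE 0.0395, edgeR adjusted p = 0.00758). Ms4a14 was low, at 36, 30 and 44 reads in WT and 62, 71 and 82 reads in Trem2_KO, with a log2 change of 0.85 (SE 0.211, edgeR adjusted p = 0.00125). Neither gene's groups overlapped. Ms4a4b, a gene of T cells, had 4 to 18 reads per library, and its log2 change of -0.15 (SE 0.443, edgeR adjusted p = 0.837) is too imprecise to give a direction.

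Of the remaining 10 genes, Ms4a1, which encodes the B cell antigen CD20, had 4 to 13 reads per library, Ms4a4d had 0 to 6, and Ms4a15 had 1 read in 1 WT library. The other 7, among them Ms4a2 of mast cells and Ms4a3 of myeloid progenitors, had 0 reads in all 6 libraries. The related 4-pass genes Tmem176a and Tmem176b, on chromosome 6, went the other way. Tmem176a was at 120.8 ± 4.35 CPM in WT and 78.0 ± 2.73 in Trem2_KO (log2 change -0.63, SE 0.0438, edgeR adjusted p = 1.77e-17), and Tmem176b was at 338.8 ± 7.23 and 228.2 ± 2.6 CPM (log2 change -0.57, SE 0.0313, edgeR adjusted p = 1.53e-21).

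**Figure D4:**
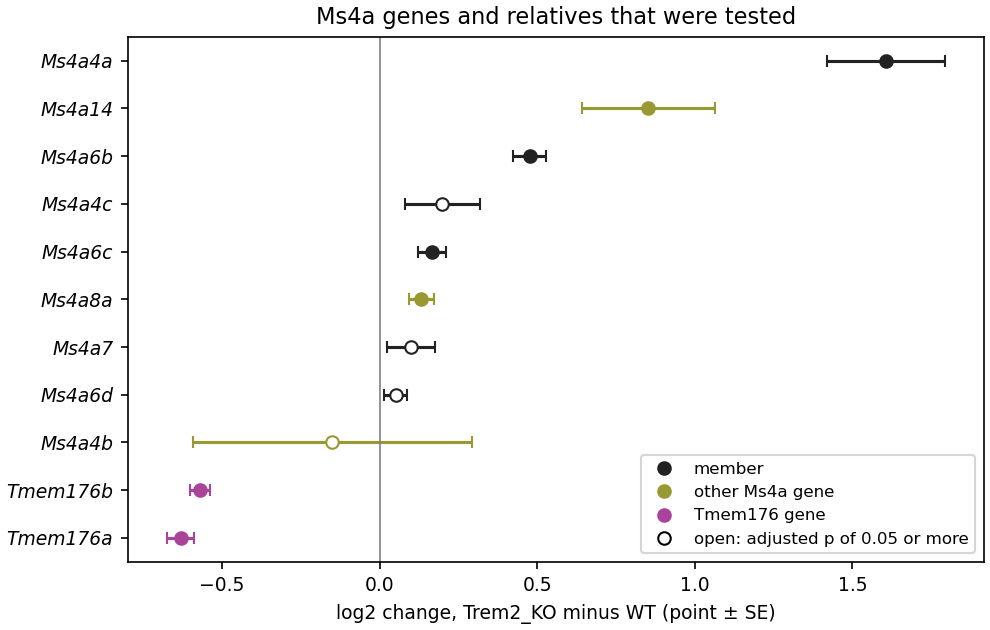
Log2 change (Trem2_KO minus WT) with its SE for the 9 tested Ms4a genes and for Tmem176a and Tmem176b; filled points have an edgeR adjusted p under 0.05. Ms4a4a is farthest to the right at 1.61, Ms4a14 follows at 0.85, and both Tmem176 genes lie left of 0.

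The rest of the locus did not move as a block. Among 40 tested genes without an Ms4a name within 1 Mb of the cluster, 6 were called higher and 9 lower (22.5% of the 40). The shares of all tested genes were 15.3% and 15.1%. With libraries scaled by total counts alone 10 were called higher, as were 2515 of all 13776 tested genes. Inside the cluster, 4 such genes were tested. Between Ms4a6c and Ms4a6b, the predicted gene Gm8369 had 28, 29 and 27 reads in WT and 66, 49 and 53 in Trem2_KO (log2 change 0.88, SE 0.234, edgeR adjusted p = 0.00262). BE692007, given above, was also higher, AW112010 near Ms4a8a was lower (log2 change -0.31, SE 0.0325, edgeR adjusted p = 1.88e-11), and the pseudogene Gm336 was not called (adjusted p = 0.925). The largest rise in the window, 1.55 (SE 0.142) was that of the fatty acid desaturase gene Fads2, and the largest fall was -0.85 for Fen1, a DNA repair nuclease gene. These locus genes were chosen for naming after their values were seen.

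**Figure D5:**
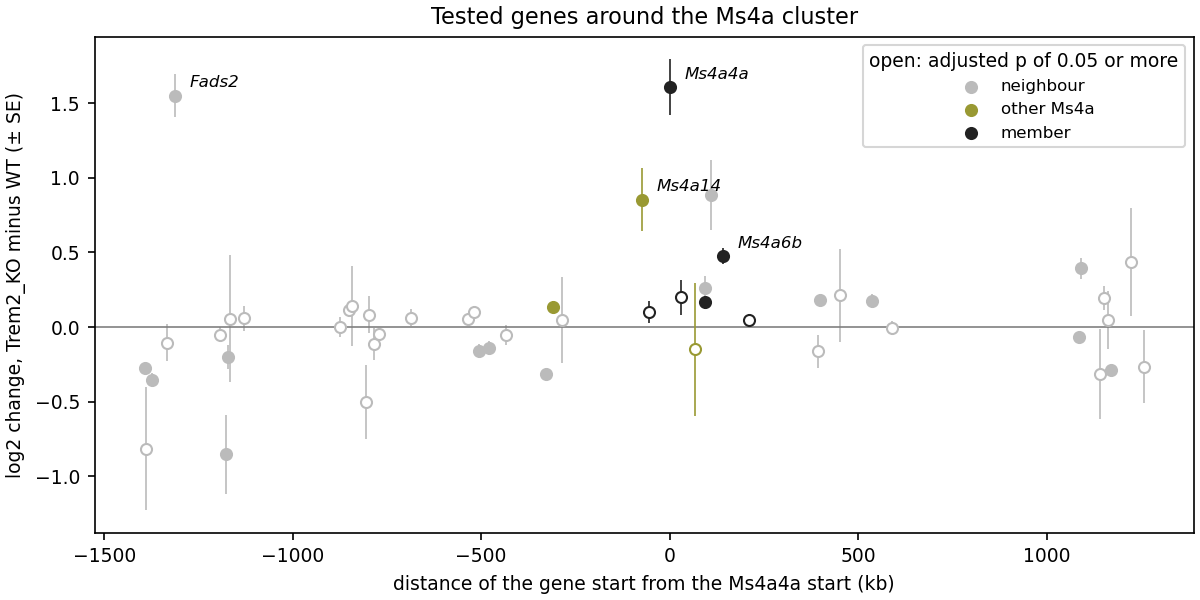
Log2 change (Trem2_KO minus WT, ± SE) of each tested gene against the distance of its start from the Ms4a4a start in kb; open points have an adjusted p of 0.05 or more. The 6 Ms4a genes followed here are dark, other Ms4a genes are olive and neighbours are grey. Rises and falls are interleaved along the window, with Ms4a4a at 1.61 and Fads2 at 1.55.

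Genes with the most similar pattern were found by the Euclidean distance between gene-centred log2 CPM over the 6 libraries, as a description. Closest to Ms4a4a were Fads2 (distance 0.214), the receptor phosphatase gene Ptprs (0.256; 37.4 and 109 CPM in WT and Trem2_KO) and the growth factor gene Tgfb3 (0.28; 14.5 and 43.9 CPM). Closest to Ms4a6b were Rubcnl (0.0922), Igfbp7 (0.0964) and the complement receptor gene C5ar1 (0.101; 132 and 175 CPM). Closest to Ms4a6c were the RNA-binding protein gene Celf2 (0.0237), Abr (0.038) and Nsmf (0.0422).

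Over all tested genes, 15.3% were called higher and 15.1% lower, with a median log2 change of -0.01. The counts of the next 5 gene lists, and of the cell type markers after them, stand beside these shares. Among genes that act with TREM2, from its adaptor to the proteases that shed it, calls were made in both directions. Of 20 tested, 4 were called higher and 5 lower, Trem2 included, with a median log2 change of -0.01. The phosphoinositide kinase subunit gene Pik3r1 was higher (log2 change 0.47, SE 0.0309, edgeR adjusted p = 2.01e-18). Tyrobp, the signalling adaptor of TREM2, was lower (834 and 718 CPM in WT and Trem2_KO, log2 change -0.22), as was the phosphatase gene Ptpn6 (-0.16). The count of genes called higher varied between settings. It was 2 without WT replicate 1, WT replicate 2 or Trem2_KO replicate 1, and 1 without Trem2_KO replicate 2. With total count scaling it was 9. Over all tested genes those fits called 1763, 1717, 1841, 1738 and 2515 higher, in the same order, against 2103 in the main fit.

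Tetraspanins and lectin partners of the membrane changed in both directions. Of 14 tested, 4 were higher and 4 lower, with a median log2 change of -0.03. Cd63, a tetraspanin of lysosomes, was at 2.36 CPM in WT and 29.2 CPM in Trem2_KO (log2 change 3.63, SE 0.126, edgeR adjusted p = 3.06e-30), and Cd9 was at 5.25 and 19.9 CPM (1.92, SE 0.116). Tspan4, by contrast, fell by 0.41 on the log2 scale (143 to 108 CPM). Clec7a, which encodes Dectin-1, was higher by 0.24 (SE 0.0298, edgeR adjusted p = 2.23e-09; 322 and 381 CPM), in the same direction as Ms4a4a.

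Alternative activation and glucocorticoid genes, the settings in which MS4A4A is known to be induced, included more genes called higher than lower. Whether either setting bears on the Ms4a4a level in these libraries was not tested. For alternative activation, 8 of 16 were higher and 3 lower, with a median log2 change of 0.15. The scavenger receptor gene Stab1 rose by 0.56 and the transcription factor gene Egr2 by 0.90, whereas the chemokine gene Ccl24 fell by 0.41. For the glucocorticoid response, 9 of 14 were higher and 2 lower, with a median of 0.39. Fkbp5 (199 and 454 CPM in WT and Trem2_KO, log2 change 1.19, SE 0.0311, edgeR adjusted p = 1.08e-35), Klf9 (1.33, SE 0.0533) and the clock gene Per1 (0.89, SE 0.0339) were the members with the smallest p. Without WT replicate 2 or Trem2_KO replicate 1 the number called lower was 1. Those fits called 3377 and 3596 of all tested genes in either direction, against 4181 in the main fit.

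Interferon-stimulated genes, among which Ms4a4c is often counted, fell where they passed the test. Of 34 tested, 19 were lower and 0 higher by edgeR, with a median log2 change of -0.16. At an unadjusted p under 0.05 the counts were 22 lower and 0 higher, with no share of all tested genes taken at that cut. DESeq2 called 0 higher as well, where it called 1623 of all 13776 genes higher. Ly6e was at 2616 and 2214 CPM in WT and Trem2_KO (log2 change -0.24), and Gbp3 changed by -0.36.

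Markers of other cells moved between the groups and are given for the whole lists, as counts of tested genes and summed CPM over the libraries of a group. Resident Kupffer cell markers were lower in 16 of 19 and higher in 1 (46540 to 47500 CPM in WT and 41180 to 41400 in Trem2_KO), the lower ones including Clec4f, Timd4 (715 and 565 CPM) and Vsig4 (2528 and 2380 CPM). The 1 that rose, named for that reason, was the adhesion molecule gene Vcam1 (1080.0 and 1751 CPM, log2 change 0.70, SE 0.0242, edgeR adjusted p = 2.35e-30). Of 15 monocyte markers, 7 were higher and 2 lower (2380 to 2408 and 2460 to 2492 CPM). Of these, Ccr2 was at 6.21 and 17.0 CPM and Cx3cr1 at 5.51 and 15.1 CPM, whereas Ly6c2 was below 1 CPM in both groups. Most of the monocyte sum was Itgal (1535 and 1555 CPM) and Treml4 (437 and 385 CPM), both named after their values were seen. Lipid-associated macrophage markers were higher in 12 of 18 and lower in 5, with Gpnmb at 3.68 and 66.1 CPM and Spp1 at 0.574 and 7.92 CPM. Their sums overlapped (41300 to 43000 and 42160 to 42650 CPM). Most of that sum was Apoe (23460 and 24350 CPM) and Ctsb (13050 and 12300 CPM), both named after their values were seen. The sum therefore says little about the markers at low levels.

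Sinusoidal endothelial markers were higher in 13 of 17 and lower in 1 (852.9 to 858.8 and 952.9 to 963.7 CPM), with a median log2 change of 0.44. Stab2 was at 406 and 429 CPM, Lyve1 at 11.2 and 17.1 CPM and Kdr at 23.6 and 32.5 CPM. Hepatocyte markers were lower in 10 of 20 and higher in 3 (1919 to 1992 and 1641 to 1670 CPM). Dendritic cell markers were higher in 1 and lower in 1 of 8 (442.6 to 454.5 and 421.3 to 440.3 CPM), with Flt3 below 1 CPM. Most of that sum was Irf8 (346 and 329 CPM), named after its values were seen. Neutrophil markers were likewise higher in 1 and lower in 1 of 5 (193.9 to 210.5 and 184.4 to 194.7 CPM). Nearly all of their sum was Csf3r (195 and 182 CPM), also named after its values were seen. S100a8 was at 1.49 and 1.18 CPM, and Ly6g was at 0 in every library. The part of any of these cells in the higher Ms4a4a, Ms4a6b and Ms4a6c values was not tested.

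Markers were also counted for the lymphoid and mast cells in which other Ms4a genes are known. B and plasma cell markers were lower in 3 of 9 (287.7 to 291.0 and 273.7 to 281.7 CPM). Most of that sum was Bank1 (169 and 178 CPM) and Cd22 (80.6 and 69.98 CPM), both named after their values were seen, while Cd79a stood at 1.06 and 1.162 CPM and Cd79b at 17.2 and 13.8 CPM, beside the few reads of Ms4a1. T and NK cell markers summed to 8.80 to 10.3 CPM in WT and 10.8 to 11.1 in Trem2_KO, with 1 of 5 called higher. Cd3e, at 0.0851 and 0.0790 CPM, was below the limit that a count of 0 allows, beside the few reads of Ms4a4b. Of 10 mast cell and basophil markers, 4 were at 0 in all libraries (Tpsb2, Tpsab1, Fcer1a and Cma1), and the sum of the list was 4.91 to 5.17 and 6.06 to 8.88 CPM.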

How the data were processed

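Per the submitters' processing notes, the tools were featureCounts 1.5.0-p3, HISAT2 2.0.5 and DESeq2 1.16.1, and the build GRCm38 (mm10). Strand setting, read length and the handling of multi-mapping reads are in no source used here. The deposited counts are whole reads per gene without normalization. The deposited FPKM values equal count over gene length over a constant per library (0.989 to 1.02 times its total). Libraries were made from total RNA with a TruSeq kit, per the labels' protocols.

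Counts were tested with edgeR 4.0.16 in R 4.3.3: filterByExpr, TMM, quasi-likelihood with robust dispersion, genotype as the only term, Benjamini-Hochberg over 13776 genes, called under 0.05. The common biological coefficient of variation was 0.0378, and 4181 genes (30.3%) were called, 2103 higher; scaling by total counts called 4107, of which 2515 higher. Between replicates, the chi-square per degree of freedom was 1.94 to 2.79, above sampling noise. The script was tested on simulated data. Intervals are 1.96 SE either side; levels as CPM are TMM-scaled.

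Named genes were the 6 members, every other Ms4a gene with a read, Trem2, up to 3 called members of each list by smallest p, the first 3 markers of each cell type, and the 3 genes nearest each called member; a few genes it picks are not reported here, and genes outside it are marked or stand beside a result they touch. The members and lists were chosen with earlier results of these data known. Alternatives changed the scaling, the filter or the threshold, or used DESeq2 1.42.0, limma 3.58.1 (voom, or log2 FPKM with a pseudocount of 1 or 0.1), fixed coefficients of variation of 0.1 and 0.2, a replicate block, and leaving out each library.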

Additional observations from a re-analysis of the deposited data

How the results depend on the processing

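Under the alternatives run, no called change and no share or ratio without overlap between groups changed direction, and Ms4a4c, Ms4a6d and Ms4a7 were called in 0 of 21. The number of the 6 genes called higher was 3 in every setting but those with a fixed coefficient of variation, where it was 2 at 0.1 and 1 at 0.2. Calls over all 13776 tested genes fell there too. They numbered 1487 at 0.1, 938 of them higher, and 371 at 0.2, 268 of them higher, against 4181 and 2103 in the main fit. At 0.2, Ms4a6b (0.48) had an adjusted p of 0.529 and Ms4a6c (0.17) of 1.0. With the coefficient fixed at 0.1, Ms4a6c (0.17) had an adjusted p of 0.457. These fixed values exceed the 0.0378 estimated from the libraries. Ms4a8a (0.13) then had adjusted p-values of 0.574 at 0.1 and 1.0 at 0.2, Ms4a14 (0.85) had 0.0946 at 0.2, Tmem176a (-0.63) 0.186 and Tmem176b (-0.57) 0.288. Ms4a14 changed by 0.37 (adjusted p = 0.0691) in limma on log2(FPKM + 1) without a filter.

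At 0.1 and 0.2, the calls were 1 and 0 higher for the other Ms4a and Tmem176 genes (0 lower at 0.2), 3 and 1 higher and 2 and 0 lower at the locus, 1 and 0 higher and 1 and 1 lower for Trem2 partners, 1 and 0 lower for tetraspanins (2 higher at 0.2), 5 and 3 higher for alternative activation (0 lower at 0.2), 0 and 0 lower for glucocorticoid genes (4 higher at 0.2), and 7 and 0 lower for interferon genes.

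With total counts, 10 locus genes and 9 Trem2 partners were higher, beside 2515 of all 13776 tested genes. Without the filter, limma on log2(FPKM + 1) gave 1 other Ms4a gene, 3 locus genes and 1 Trem2 partner higher. It gave 5 locus genes and 1 glucocorticoid gene lower. That fit called 1979 of all 25227 genes, 960 of them higher. Trem2 partners called higher numbered 1 without the filter in edgeR and 2 in DESeq2. They numbered 1 in limma on log2 FPKM with either pseudocount and 1 at an adjusted p under 0.01. Of all genes, 1856 of 25227 were higher without the filter in edgeR and 1623 of 13776 in DESeq2. The number was 1508 and 1488 in limma with a pseudocount of 1 and 0.1, and 1490 at an adjusted p under 0.01. Leaving out a library gave 1 to 5 Trem2 partners higher and 1 to 2 glucocorticoid genes lower. Those fits called 3377 to 3909 of all tested genes, 1717 to 1956 of them higher. With coding transcript lengths, the share of Ms4a4a was 2.16 percentage points higher in Trem2_KO and that of Ms4a6b 2.47. The cause of these shifts was not tested.

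Samples with the same number showed little joint deviation (r -0.00787, 0.00313 and 0.0361). These values give no sign that the numbers pair the libraries, but correlations over all genes cannot exclude a pairing. With the replicate block, 4230 genes were called in place of 4181, 3 of the 6 genes were higher (Ms4a4a 1.603, Ms4a6b 0.48, Ms4a6c 0.17), and no call of these genes, Ms4a4c, Ms4a6d, Ms4a7, Ms4a8a, Ms4a14, Tmem176a or Tmem176b changed. The low counts of Ms4a4a, Ms4a14 and Ms4a4b limit how well their fold changes are known.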
